A study of Arabidopsis thaliana with 14 samples.

Results

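The evening-phased clock genes described here are 10 of the 33602 genes counted in each library, chosen by name as TOC1, PRR5, PRR3, GI, FKF1, ZTL, ELF3, ELF4, LUX and BOA. Earlier results of these data were known when they were chosen. RNA was sequenced from pools of 5 whole rosettes of Arabidopsis thaliana at 3 weeks of age, grown with 12 h of light per day, at 22 °C in the light and 19 °C in the dark. All groups were harvested 3 h after a spray that held the wetting agent Silwet-L77 at 0.001%. The groups were N2102363 and N2102362, lines carrying an estradiol-inducible WRKY75, both sprayed with 50 µM estradiol (4 libraries each), wild-type Col-0 sprayed with 50 µM estradiol (3 libraries), and Col-0 sprayed with water (3 libraries). The labels give neither the driver of the transgene nor the clock hour of harvest, and water-sprayed plants of the lines were not analysed here. The samples analysed here were not taken through a day, so the evening phase of the genes could not be checked and rests on the textbook.

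The plant circadian clock is a set of genes that repress each other in turn through the day. CCA1 and LHY, made around dawn, repress genes that hold the evening element in their promoters, and several of those evening genes repress CCA1 and LHY or the day-phased PRR9 and PRR7 in return. TOC1, PRR5 and PRR3 are pseudo-response regulators, of which TOC1 and PRR5 are repressors of transcription. GI binds the blue-light receptors FKF1 and ZTL, F-box proteins that mark other proteins for degradation; ZTL acts on TOC1 and PRR5, and FKF1 with GI removes the CDF repressors of flowering. ELF3, ELF4 and LUX form the evening complex, a repressor in which LUX binds DNA, and BOA is a close relative of LUX. The ZTL transcript is known to stay nearly level through the day while its protein cycles.

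Because the evening element is the sequence most tied to this group, stretches of the promoters that hold it are shown from RefSeq TAIR10.1, each written 5′ to 3′ on the plus strand, with the element (AAAATATCT, or AGATATTTT where it lies on the other strand) in capitals and up to 40 bases on each side. TOC1 holds 1 copy (chr5:24674772-24674860), LUX holds 1 (chr3:17182949-17183037), BOA holds 1 (chr5:24003805-24003887) and FKF1 holds 2 (chr1:25508226-25508314 and chr1:25508413-25508501).
TOC1: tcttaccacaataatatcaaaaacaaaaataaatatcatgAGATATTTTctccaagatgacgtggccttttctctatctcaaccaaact
LUX: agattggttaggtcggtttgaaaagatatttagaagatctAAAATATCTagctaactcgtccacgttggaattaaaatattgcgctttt
BOA: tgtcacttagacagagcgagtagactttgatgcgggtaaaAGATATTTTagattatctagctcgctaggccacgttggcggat
FKF1 far copy: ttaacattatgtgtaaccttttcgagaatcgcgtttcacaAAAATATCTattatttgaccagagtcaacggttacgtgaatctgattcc
FKF1 near copy: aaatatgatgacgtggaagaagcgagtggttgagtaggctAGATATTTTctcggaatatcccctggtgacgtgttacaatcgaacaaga

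The element ended 143 bases before the RefSeq start of TOC1, 45 before LUX, 35 before BOA, and 365 and 178 before FKF1. In the 500 bases before the RefSeq start, on either strand, the element was present in 5 of 10 evening genes, in 1 of 14 morning clock genes, and in 4.44% of 27443 protein-coding genes. PRR5 was the fifth, with 2 copies, but these lie inside the gene model of the deposited files, which begins 327 bases ahead of the RefSeq start, so they are not printed. The CCA1-binding site AAAAATCT, which shares most of its letters with the evening element, was in 1 evening gene (PRR5) and in 12.5% of all genes. The LUX-binding letters GATACG or GATTCG were in 4 evening genes (TOC1, ELF3, ELF4 and LUX) and in 22.6% of all genes. The G-box CACGTG was in 2 evening genes (LUX and BOA), in 7 of 14 morning genes and in 9.35% of all genes. The W-box, searched as TTGACC or TTGACT, the kind of site that WRKY proteins bind, was in 2 evening genes (FKF1 and ZTL) and in 45.2% of all genes. These matches describe the letters of the windows and were not tested as binding sites.

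**Figure D1:**
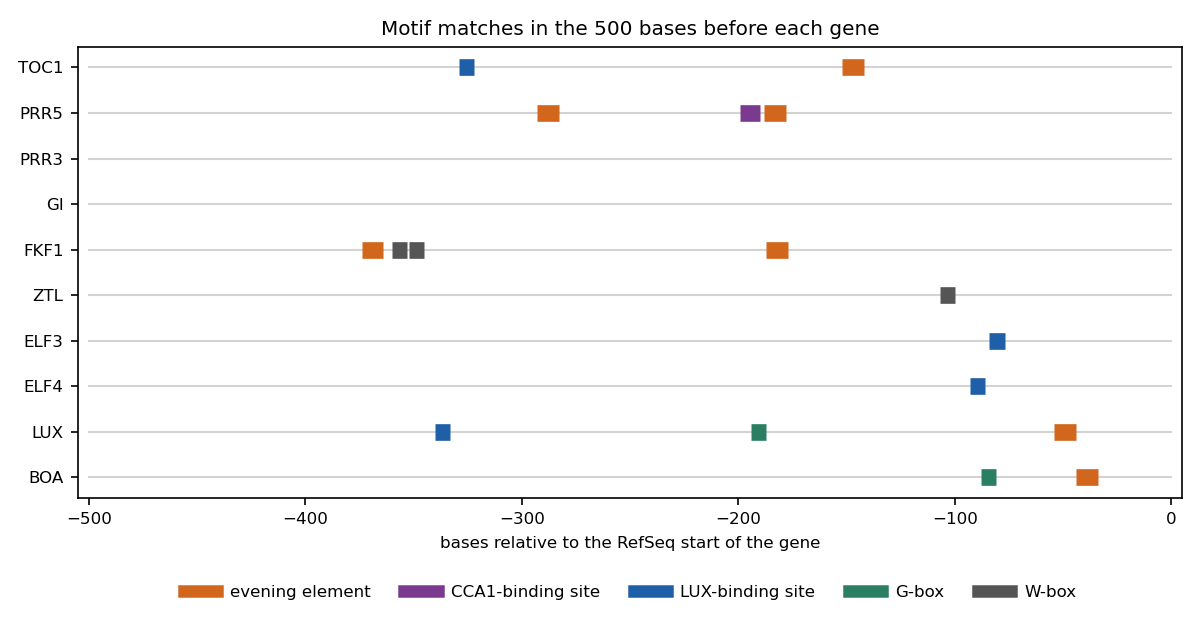
Matches of 5 motifs on either strand in the 500 bases before the RefSeq TAIR10.1 start of each evening gene; the horizontal axis is the distance from the start in bases, each row is a gene and each coloured block is a match. The evening element is seen in TOC1, PRR5, FKF1, LUX and BOA, and PRR3 and GI hold no match to the letters searched.

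In the TAIR10 coordinates of the deposited files, the pseudo-response regulator genes lie on chromosome 5, TOC1 (AT5G61380) at 24675064 to 24678550 on the plus strand, PRR5 (AT5G24470) at 8355951 to 8358873 on the minus strand and PRR3 (AT5G60100) at 24197998 to 24201404 on the minus strand. GI (AT1G22770) lies on chromosome 1 at 8061844 to 8067716 and FKF1 (AT1G68050) on chromosome 1 at 25508676 to 25510889, both on the plus strand. ZTL (AT5G57360) and BOA (AT5G59570) are plus-strand genes of chromosome 5, at 23241427 to 23244590 and at 24003888 to 24005512. ELF3 (AT2G25930) and ELF4 (AT2G40080) lie on chromosome 2, at 11059035 to 11063324 on the plus strand and at 16734294 to 16734912 on the minus strand, and LUX (AT3G46640) on chromosome 3 at 17183070 to 17185218 on the plus strand. All 10 are annotated as protein-coding. The library kit does not mark strand, and ELF3 shares 24 bases with the opposite-strand gene AT2G25940, so reads there cannot be assigned to either. In RefSeq, ELF3 also overlaps the opposite-strand antisense RNA AT2G08135, and FKF1 overlaps the opposite-strand gene AT1G68060. The same limit holds for reads there. No evening gene matched another gene at 95% identity or more over 100 bases or more. The closest match was between FKF1 and AT5G23410, 89.1% identical over 479 bases. The other matches were PRR3 with PRR7, at 73.1% over 331 bases, PRR5 with PRR9, at 72.5% over 404 bases, ZTL with LKP2, at 72.1% over 1827 bases, and LUX with BOA, at 71.4% over 797 bases.

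Total counts per library ran from 20456036 to 22605970, and values below are CPM (counts scaled to a common library total), where 1 count was worth 0.0440 to 0.0528 CPM. The targeted gene WRKY75 stood at 76.7 to 167 CPM in N2102363 and 28.2 to 82.1 CPM in N2102362, against 0.627 to 2.69 CPM in Col-0 with estradiol, and 0.428 to 1.25 CPM in Col-0 with water. Replicate 4 of both lines stood apart from the other 12 libraries in many genes, below all of them in 12.5% and above all of them in 13.4% of the 19666 genes tested. The study's design text gives the lines 4 replicates while its protocol for RNA names 3, and Col-0 had no replicate 4, so in Col-0 the same comparison cannot be made. The deposited names of the line files, and of no Col-0 file, hold the word combined, and those of replicate 4 alone hold a date; the sources used here do not say what either stands for. Results are therefore given with and without those 2 libraries. The samples are labelled biological replicates, and p-values measure the spread between these pools. In RNA from whole rosettes, fewer cells that express a gene and less RNA per cell cannot be told apart.

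Among the pseudo-response regulators, TOC1 had 58.8, 65.0, 55.8 and 27.1 CPM in replicates 1 to 4 of N2102363 and 58.1, 44.5, 50.2 and 28.6 CPM in N2102362, against 49.5, 47.02 and 78.0 CPM in Col-0 with estradiol, and 49.4, 61.1 and 39.6 CPM in Col-0 with water. Both replicate 4 libraries lay under all others, and replicates 1 to 3 of every group overlapped. PRR5 had 78.4, 70.4, 44.4 and 11.4 CPM in N2102363 and 91.3, 47.6, 45.0 and 8.74 CPM in N2102362, against 49.1, 54.1 and 115 CPM in Col-0 with estradiol, and 32.4, 93.2 and 30.8 CPM in Col-0 with water. PRR5 differed widely within each group, with 1 high library in N2102362 and in each Col-0 group. PRR3, a relative of TOC1 known to bind it, had 8.01, 10.4, 7.34 and 1.55 CPM in N2102363 and 8.69, 12.3, 8.75 and 1.64 CPM in N2102362, against 8.23, 14.8 and 13.4 CPM in Col-0 with estradiol, and 10.9, 17.0 and 7.23 CPM in Col-0 with water. Both replicate 4 libraries again lay under all others.

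Of GI and its F-box partners, GI had 115, 127, 115 and 67.8 CPM in N2102363 and 127, 127, 124 and 59.0 CPM in N2102362, against 132, 150 and 139 CPM in Col-0 with estradiol, and 142, 166 and 114 CPM in Col-0 with water. GI was the only evening gene whose 8 line libraries all lay under the 3 Col-0 libraries with estradiol, as did 1.13% of all genes tested, but Col-0 with water reached down into the range of the lines. FKF1 had 6.65, 6.43, 4.44 and 0.301 CPM in N2102363 and 12.2, 3.07, 4.49 and 0.308 CPM in N2102362, against 5.43, 5.60 and 20.5 CPM in Col-0 with estradiol, and 3.55, 14.6 and 1.42 CPM in Col-0 with water. Its replicate 4 values rest on 6 counts each, and single high libraries stood in N2102362 and both Col-0 groups. ZTL ranged from 47.2 to 49.7 CPM in N2102363 and 44.1 to 53.95 CPM in N2102362, against 46.2 to 57.2 CPM in Col-0 with estradiol and 46.95 to 53.3 CPM in Col-0 with water. Its 4 groups overlapped throughout, replicate 4 included.

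Of the evening complex, ELF3 had 55.6, 55.7, 54.5 and 40.7 CPM in N2102363 and 54.05, 52.4, 52.1 and 33.4 CPM in N2102362, against 51.7, 47.5 and 61.1 CPM in Col-0 with estradiol, and 48.4, 50.7 and 45.3 CPM in Col-0 with water. The first 3 replicates of both lines lay close together, inside the range of Col-0 with estradiol and above the 3 libraries of Col-0 with water, and replicate 4 lay below them. ELF4 had 0.704, 1.06, 0.918 and 0.0502 CPM in N2102363 and 1.17, 0.677, 0.608 and 0.0514 CPM in N2102362, against 1.00, 0.672 and 1.43 CPM in Col-0 with estradiol, and 0.450, 1.52 and 0.426 CPM in Col-0 with water. ELF4 was thinly counted, with 9 to 32 counts in the first 3 replicates of all groups and 1 count in each replicate 4. LUX had 24.3, 26.0, 23.04 and 12.7 CPM in N2102363 and 26.3, 16.4, 21.5 and 10.8 CPM in N2102362, against 25.0, 18.9 and 36.6 CPM in Col-0 with estradiol, and 20.4, 26.9 and 18.0 CPM in Col-0 with water. LUX resembled TOC1, with replicate 4 under the rest and overlap elsewhere. BOA, with 5 to 19 counts per library, ranged from 0.676 to 0.836 CPM in N2102363 and 0.406 to 0.728 CPM in N2102362, against 0.224 to 1.00 CPM in Col-0 with estradiol and 0.520 to 0.760 CPM in Col-0 with water, and its groups overlapped.

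**Figure D2:**
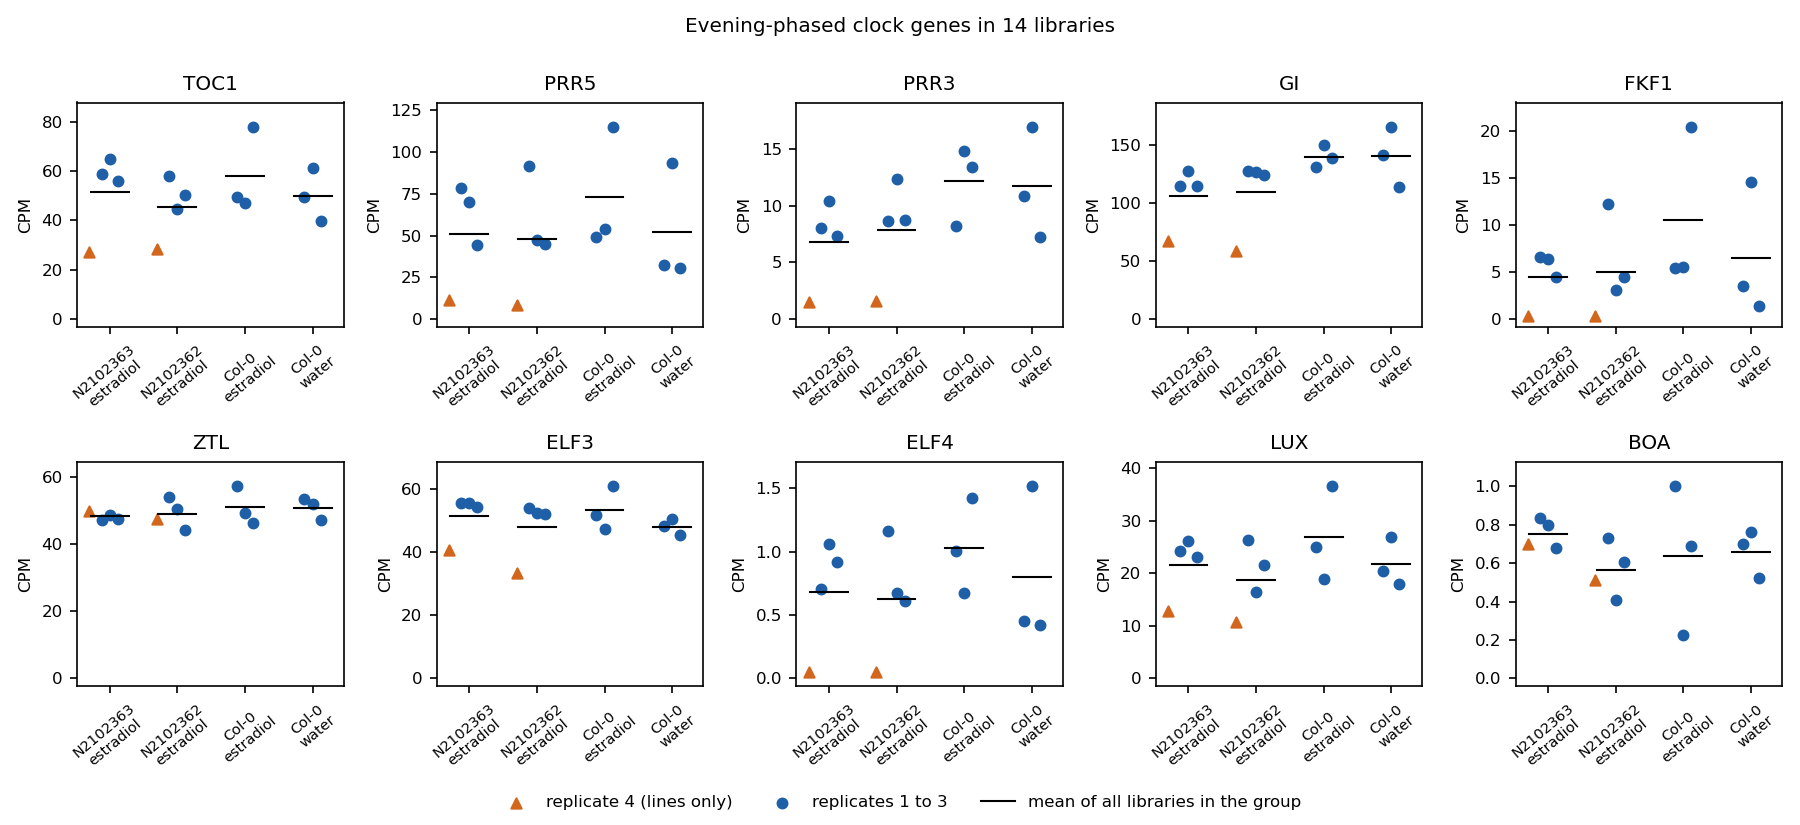
Level of each evening gene in every library, in CPM, by group; triangles are replicate 4 of the lines, circles are replicates 1 to 3 and bars are the mean of all libraries of the group. The triangles lie under every circle in 8 of 10 panels, the exceptions being ZTL and BOA.

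Levels of different genes were compared per kilobase of RefSeq exon inside each gene model of the deposited files. The PRR5 model of the files begins 327 bases ahead of the RefSeq start and also runs past the RefSeq end. Reads there were counted but bases there were not, so PRR5 may be set too high. Its place against GI is therefore uncertain. In N2102363, PRR5 averaged 30.5 ± 18.0 and GI 25.7 ± 6.37 CPM per kb (SD, n = 4), and in N2102362 28.7 ± 20.2 and 26.5 ± 8.15 CPM per kb (SD, n = 4). In Col-0 with estradiol the order was PRR5 at 43.4 ± 21.9, GI at 33.9 ± 2.26, ZTL at 21.8 ± 2.45, TOC1 at 21.5 ± 6.36, ELF3 at 20.1 ± 2.61 and LUX at 12.5 ± 4.18 CPM per kb (SD, n = 3). FKF1 followed at 4.97 ± 4.09, PRR3 at 4.38 ± 1.25, ELF4 at 1.67 ± 0.612 and BOA at 0.440 ± 0.270 CPM per kb. PRR5 and GI did not differ beyond their spread, nor did ZTL, TOC1 and ELF3 among themselves, nor FKF1 and PRR3. Within the evening complex, ELF4 transcript was the scarcest per kilobase and ELF3 the most abundant by group means in all 4 groups.

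The first question of the design is whether the evening genes differ between estradiol-sprayed line plants and estradiol-sprayed Col-0. In the mean of both lines, 9 evening genes had a lower and 1 (BOA) a higher estimate, the median log2 fold change was -0.40, and 0 of 10 passed the test at an adjusted p under 0.05. Over all 19666 genes the median was -0.00 and 0.0356% passed; 0 evening genes had an unadjusted p under 0.05 in edgeR in this or any other comparison between groups, and DESeq2 also called 0 in each. The largest estimate was that of FKF1, -1.14 ± 0.84 (SE, adjusted p = 0.604), followed by PRR3 at -0.73 ± 0.50 (adjusted p = 0.589), ELF4 at -0.64 ± 0.63 (adjusted p = 0.694) and PRR5 at -0.55 ± 0.61 (adjusted p = 0.724). GI stood at -0.38 ± 0.23 (adjusted p = 0.553), LUX at -0.42 ± 0.27 (adjusted p = 0.573), TOC1 at -0.26 ± 0.26 (adjusted p = 0.694) and ELF3 at -0.10 ± 0.14 (adjusted p = 0.785). ZTL, at -0.07 ± 0.08 (adjusted p = 0.745), had the narrowest error, and BOA was at 0.05 ± 0.34 (adjusted p = 0.954). WRKY75 itself was 5.64 ± 0.57 higher on the log2 scale (adjusted p = 0.000792) in the same comparison.

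Without replicate 4 of both lines the median of the evening genes was -0.20, with 8 lower and 2 higher, GI stood at -0.20 ± 0.11 (adjusted p = 0.816) and FKF1 at -0.76 ± 0.67 (adjusted p = 0.849). Without replicate 3 of Col-0 with estradiol, the library highest in TOC1, PRR5, FKF1, ELF3 and LUX, the median was -0.13, with 7 lower and 3 higher, and FKF1 stood at -0.22 ± 1.01 (adjusted p = 0.934). Set against Col-0 with water and without replicate 4, 6 were higher and 4 lower, with a median of 0.03. TOC1, PRR5, ELF4 and LUX then had higher estimates in the lines, whereas PRR3, GI, FKF1 and ZTL had lower ones in all of these fits. In each of them 0 evening genes passed the test.

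**Figure D3:**
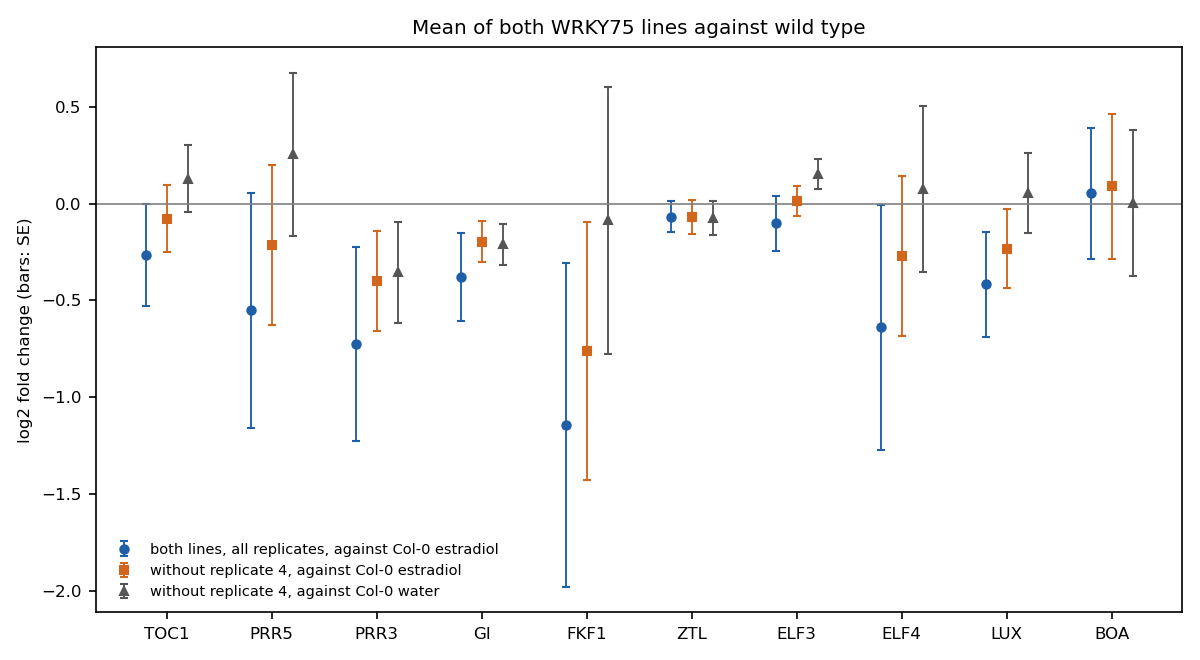
Log2 fold change of each evening gene in the mean of both lines, with the standard error as bars, for all replicates against Col-0 with estradiol (circles), without replicate 4 against Col-0 with estradiol (squares) and without replicate 4 against Col-0 with water (triangles). Estimates for TOC1, PRR5, ELF4 and LUX lie below 0 as circles and squares and above 0 as triangles.

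Taken line by line, with the same Col-0 libraries in both comparisons, 9 evening genes were lower in N2102363 with a median of -0.36, and 10 were lower in N2102362 with a median of -0.44; 0 passed in either, where 0.0254% of all genes passed in N2102363 and 0.0305% in N2102362. Without replicate 4 of both lines the medians were -0.16 in N2102363 and -0.22 in N2102362. FKF1 was at -1.23 ± 0.98 (adjusted p = 0.598) in N2102363 and at -1.06 ± 0.98 (adjusted p = 0.852) in N2102362. PRR3 was at -0.83 ± 0.58 (adjusted p = 0.555) in N2102363 and at -0.63 ± 0.58 (adjusted p = 0.852) in N2102362. BOA was at 0.26 ± 0.37 (adjusted p = 0.764) in N2102363 and at -0.16 ± 0.38 (adjusted p = 0.942) in N2102362. Between the lines, N2102363 over N2102362, estimates ran from -0.20 for PRR3 to 0.42 for BOA and 0 evening genes passed, where 0.00508% of all genes passed. The median between the lines was 0.10, and it was -0.14 without replicate 4 of N2102362 and 0.30 without that of N2102363.

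The second question is what the estradiol spray alone did to wild-type plants. In Col-0 with estradiol against Col-0 with water, 8 evening genes had higher and 2 lower estimates, with a median of 0.18, and 0 passed, where 0% of all genes passed; with scaling by library totals alone 7 were higher. FKF1 was at 0.69 ± 1.05, PRR5 at 0.48 ± 0.75 and ELF4 at 0.36 ± 0.77, each with an adjusted p of 1.00. GI was at -0.00 ± 0.28 and ZTL at 0.01 ± 0.10, each with an adjusted p of 1.00. The median was -0.01 without replicate 3 of Col-0 with estradiol, and 0.41 without replicate 2 of Col-0 with water.

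Apart from replicate 4, the evening genes varied within groups by amounts that differed greatly between them. Over the first 3 replicates of all 4 groups, the pooled within-group SD of log2 CPM was 1.12 for FKF1 and 0.67 for PRR5, against a median of 0.20 over all genes tested and a 90th percentile of 0.49. It was 0.59 for ELF4 and 0.52 for BOA, both thinly counted, and 0.42 for PRR3, 0.33 for LUX and 0.28 for TOC1. GI, ZTL and ELF3 lay below the median, at 0.15, 0.12 and 0.10. The highest of these 12 libraries exceeded the lowest by 14.4-fold in FKF1, 3.74-fold in PRR5, 1.97-fold in TOC1 and 1.35-fold in ELF3. High and low values tended to fall in the same libraries: Col-0 with estradiol replicate 3 and Col-0 with water replicate 2 were each among the top 3 of 12 for 7 of 10 evening genes, and N2102362 replicate 1 for 5, while Col-0 with water replicate 3 was among the lowest 3 for 10 of 10. These libraries carry different replicate numbers, so no number from 1 to 3 was the high one across groups.

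Replicate 4 of the lines held most of the evening genes at their lowest. These values are a description, since replicate 4 was set apart when the genes were chosen. Both replicate 4 libraries lay below all 12 others in 8 of 10 evening genes, all but ZTL and BOA, and in 12.5% of all genes tested. The fitted log2 change of replicate 4 against replicates 1 to 3 of the lines was -4.32 for FKF1, -2.64 for PRR5, -2.53 for PRR3, -0.98 for TOC1, -0.96 for LUX, -0.95 for GI, -0.55 for ELF3, -0.15 for BOA and -0.00 for ZTL. In the share of the level in replicates 1 to 3, FKF1 stood at 4.93% (12 counts in replicate 4, 95% interval 2.54% to 8.66%) and ELF4 at 5.95% (2 counts, 0.712% to 22.0%), with exact binomial intervals that cover counting error only. PRR5 stood at 16.1% and PRR3 at 17.2%, whereas TOC1, GI and LUX stood at 50.2%, 51.7% and 51.4% and ELF3 at 68.6%. ZTL stood at 100.0% and BOA at 90.1%, so the 10 genes spread from 4.93% to 100.0% of their level in replicates 1 to 3.

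The median of the 10 log2 changes was -0.97, against -0.01 over all genes tested. Replicate 4 was called lower (adjusted p under 0.05) in 7 of 10 evening genes, where 3.88% of all genes were called lower, from which nothing is read because the same contrast entered the choice. The uncalled genes were FKF1, BOA and ZTL. The count was 3 without replicate 2 of N2102363, and 0 without replicate 4 of either line, where 1 library remained and 0 genes of the whole table were called. PRR5 was lower by 2.44 in N2102363 and by 2.72 in N2102362 on the log2 CPM scale, and GI by 0.81 in N2102363 and by 1.10 in N2102362.

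**Figure D4:**
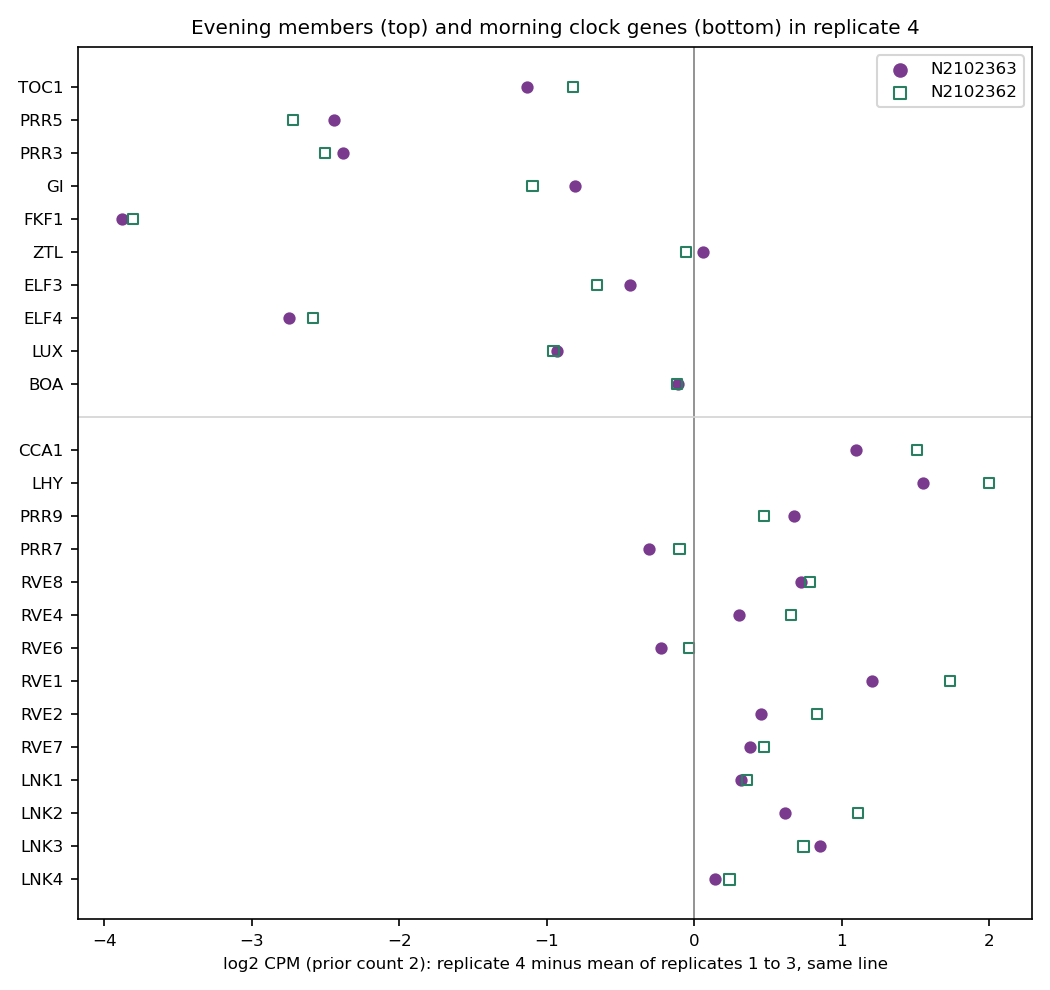
Difference in log2 CPM, with a prior count of 2, between replicate 4 and the mean of replicates 1 to 3 of the same line, for 10 evening genes above and 14 morning clock genes below; filled circles are N2102363 and open squares N2102362. In both lines 9 evening genes lie left of 0 and 12 morning genes lie right of 0, and the prior count pulls the thinly counted ELF4 and FKF1 toward 0.

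The morning side of the clock stood the other way in replicate 4. Of 14 morning clock genes, 12 were higher in replicate 4 of both lines, and the median log2 change of the 14 was 0.58. Both replicate 4 libraries lay above all 12 others in 9 of the 14, and in 13.4% of all genes tested. Replicate 4 was called higher in 4 of the 14 (CCA1, LHY, RVE1 and LNK2), where 3.58% of all genes were called higher. LHY, the dawn repressor, had 19.7 CPM in replicate 4 of N2102363 and 22.7 CPM in that of N2102362, against 5.28 to 7.79 CPM in replicates 1 to 3 of the lines. CCA1, its partner, had 69.1 and 84.5 CPM in these 2 libraries, against 23.4 to 41.5 CPM. LNK2, a coactivator of evening genes, had 707 and 799 CPM, against 334 to 491 CPM, and RVE1, a CCA1 relative, had 31.5 and 35.8 CPM, against 8.25 to 18.5 CPM. The day-phased PRR9 had 31.2 and 33.2 CPM, against 15.0 to 25.6 CPM. PRR7 had 406 and 404 CPM, inside the 383 to 576 CPM of replicates 1 to 3.

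In single Col-0 libraries that were high in evening genes, some of the named morning genes were at their lowest. In Col-0 with water replicate 2, high in evening genes, LHY was 3.18 CPM, CCA1 15.2 CPM and LNK2 191 CPM, the lowest of the 14 libraries for each. PRR9 was lowest at 10.4 CPM in Col-0 with estradiol replicate 3 and next lowest at 10.6 CPM in Col-0 with water replicate 2. Between the Col-0 groups the lists did not stand opposite. With estradiol against water, 8 of 10 evening genes had higher estimates (median 0.18), as did 11 of 14 morning genes (median 0.12). In that comparison 0 genes of either list passed.

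**Figure D5:**
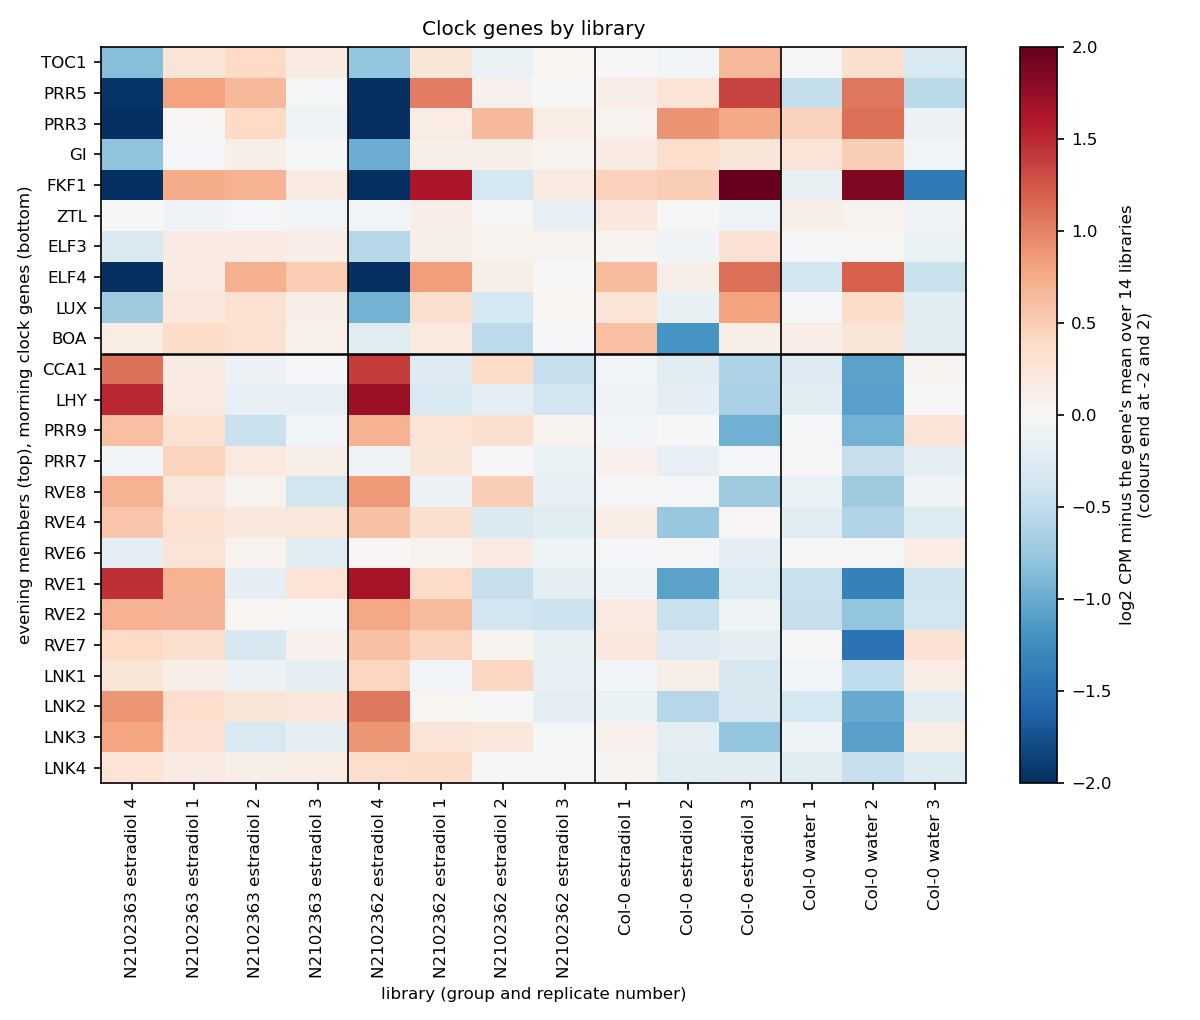
Log2 CPM of 10 evening genes (upper rows) and 14 morning clock genes (lower rows) in each of the 14 libraries, minus the gene's mean over the libraries; red is higher, blue is lower and colours end at -2 and 2. Replicate 4 of both lines is blue for 8 evening genes and red for CCA1, LHY and RVE1, and Col-0 with water replicate 2 shows the reverse for PRR5, FKF1, CCA1 and LHY.

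With both lines averaged and Col-0 with estradiol as the wild type, 14 of 14 morning genes had higher estimates, with a median of 0.46. Of these 0 passed in edgeR and 0 were called by DESeq2. An unadjusted p under 0.05 in edgeR was found for 3 of the 14, and for 1834 of all 19666 genes tested. RVE1 was at 1.06 ± 0.48 (adjusted p = 0.528), LHY at 0.81 ± 0.52 (adjusted p = 0.568), LNK2 at 0.71 ± 0.27 (adjusted p = 0.528), CCA1 at 0.69 ± 0.40 (adjusted p = 0.544), PRR9 at 0.53 ± 0.29 (adjusted p = 0.533) and PRR7 at 0.14 ± 0.13 (adjusted p = 0.687). Without replicate 4, 14 of 14 were still higher, with a median of 0.25 and 0 called. LHY was then at 0.12 ± 0.22 (adjusted p = 0.939) and CCA1 at 0.25 ± 0.24 (adjusted p = 0.869). RVE1 was at 0.55 ± 0.30 (adjusted p = 0.816) and LNK2 at 0.44 ± 0.17 (adjusted p = 0.816). With both Col-0 groups as the wild type, 1 morning gene was called, LNK4, a relative of LNK2, where 127 of all 19666 genes were called. LNK4 was at 0.40 ± 0.08 (adjusted p = 0.0488), close to the threshold, against 0.31 ± 0.11 (adjusted p = 0.520) with Col-0 with estradiol alone.

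Genes around the evening genes were read in 4 further lists, and 0 members of any passed in edgeR in the mean of the lines. An unadjusted p under 0.05 was found for 2 of 6 relatives and 2 of 14 outputs or partners. The same held for 1834 of all 19666 genes tested. Of 6 relatives of the evening genes, 2 were higher and 4 lower, with the ELF4-like gene EFL3 at -0.38 ± 0.17 (adjusted p = 0.528), EEC, an ELF3 relative, at 0.31 ± 0.53 (adjusted p = 0.827) and the ELF4-like EFL1 at -0.28 ± 0.56 (adjusted p = 0.854). Of 14 evening outputs and partners, 3 were higher and 11 lower, with a median of -0.08. Among these, the cold-regulated clock repressors COR27 and COR28 were at -1.32 ± 0.72 (adjusted p = 0.533) and -1.20 ± 0.84 (adjusted p = 0.593), and the RNA-binding protein gene GRP7 at -0.85 ± 0.52 (adjusted p = 0.556). Without replicate 3 of Col-0 with estradiol COR27 was at -0.10 ± 0.84 (adjusted p = 0.967) and COR28 at -0.08 ± 1.01 (adjusted p = 0.978). GRP7 stayed at -0.89 ± 0.61 (adjusted p = 0.516) in that fit. Against Col-0 with water COR27 was at 0.09 ± 0.82 (adjusted p = 0.955) and COR28 at -0.63 ± 0.87 (adjusted p = 0.684). GRP7 was then at -1.29 ± 0.51 (adjusted p = 0.178). Of 6 photoperiod genes downstream of GI and FKF1, 5 were tested and all 5 were higher, with CDF1 at 0.62 ± 0.41 (adjusted p = 0.573), CDF2 at 0.19 ± 0.20 (adjusted p = 0.711) and CDF3 at 0.15 ± 0.30 (adjusted p = 0.852). In each line taken alone 4 of the 5 were higher. Without replicate 3 of Col-0 with estradiol CDF1 was at 0.28 ± 0.41 (adjusted p = 0.769), CDF2 at 0.03 ± 0.22 (adjusted p = 0.960) and CDF3 at -0.16 ± 0.29 (adjusted p = 0.818). FT, the flowering signal, was too low to be tested. Of 5 known targets of the evening complex, 3 were higher and 2 lower, among them PIF5, a growth-promoting factor, at 0.11 ± 0.10 (adjusted p = 0.650).

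In replicate 4, GRP7, known to peak in the evening, had 146 CPM in N2102363 and 116 CPM in N2102362, against 383 to 761 CPM in replicates 1 to 3 of the lines and 588 to 1999 CPM in Col-0. COR28 had 8 counts in replicate 4 of N2102363 and 3 in that of N2102362, against 49 to 239 counts in replicates 1 to 3 of the lines. CDF1, a target of GI and FKF1, had 30.9 and 32.1 CPM in the replicate 4 libraries, against 11.4 to 20.8 CPM in replicates 1 to 3 of the lines. PIF5 had 245 to 264 CPM in replicate 4, inside the range of 195 to 286 CPM of the other 12 libraries.

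Other measures moved with replicate 4, and their part in these values was not tested. The summed level of 5 rosette markers was 35061 to 40117 CPM in replicate 4, against 20206 to 26257 CPM in replicates 1 to 3 of the lines, 15944 to 26862 CPM in Col-0 with estradiol and 17384 to 24669 CPM in Col-0 with water. Both replicate 4 libraries lay above all 12 others in 4 of the 5, and in 13.4% of all genes tested. Of the 2 root markers, the summed level was 65.6 to 67.2 CPM in replicate 4, against 29.7 to 51.4 CPM in replicates 1 to 3 of the lines, 20.5 to 38.1 CPM in Col-0 with estradiol and 24.3 to 36.5 CPM in Col-0 with water, nearly all from PYK10, while the root phosphate transporter PHT1;1 reached at most 0.236 CPM in any library. The 3 flower markers summed to 1.49 to 2.56 CPM in replicate 4, against 0.842 to 1.67 CPM in replicates 1 to 3 of the lines, 0.689 to 1.07 CPM in Col-0 with estradiol and 0.850 to 1.37 CPM in Col-0 with water, and AP3 reached at most 0.236 CPM. WRKY75 was 167 CPM in replicate 4 of N2102363, against 76.7 to 146 CPM in its replicates 1 to 3, and 82.1 CPM in replicate 4 of N2102362, against 28.2 to 30.7 CPM.

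The genes most like the evening group were sought among tested genes outside the clock and marker lists, so no listed gene could appear. The measure was Pearson's r between a gene's log2 CPM and the mean standardised profile of the 10 evening genes over the 14 libraries. It is a description in which all points share libraries and replicate 4 weighs heavily. The highest were AT4G27130 (r = 0.977, and 0.886 over the 12 libraries without replicate 4), the amino acid transporter gene LHT1 (0.972 and 0.879), ALDH5F1, which encodes succinic semialdehyde dehydrogenase (0.972 and 0.960), AT4G02370 (0.972 and 0.937) and the riboflavin biosynthesis gene RIBA2 (0.966 and 0.868). LHT1 had 42.7 CPM in replicate 4 of N2102363 and 35.8 CPM in that of N2102362, against 61.9 to 102 CPM in the other 12 libraries. The most opposite were the starch synthase gene SS3 (-0.947 and -0.838), AT4G30400 (-0.946 and -0.908), CHIL, a chalcone isomerase-like gene (-0.946 and -0.844), AT1G54220 (-0.939 and -0.851) and AT2G17300 (-0.939 and -0.784). SS3 had 79.0 and 90.8 CPM in the replicate 4 libraries, against 46.7 to 64.8 CPM in the other 12.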

How the data were processed

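Rosette RNA of 14 samples was sequenced with a kit that does not mark strand, per the labels' protocols. The deposited values were whole-number read counts per gene, made by the authors with TopHat2, SAMtools and HTSeq on TAIR10 after FastQC, per the submitters' processing notes. Versions, counting mode and the handling of multiple matches are not given in the sources used here.

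All 14 libraries entered 1 fit in edgeR 4.0.16 (R 4.3.3), with TMM scaling, filterByExpr (minimum count 10; 19666 genes kept, the 10 evening genes among them, and 13936 removed), the robust quasi-likelihood test with group as factor, 10 residual degrees of freedom, and Benjamini-Hochberg adjustment over all genes at 0.05. A replicate 4 term was added for the replicate 4 values. Every adjusted p of a gene is from this test. The biological coefficient of variation was 0.196. Errors of fold changes are SE and of levels SD. Of the comparisons, only that of the mean of the lines with Col-0 with estradiol was tried on simulated data.

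Members and lists were chosen with earlier results of these data known. Named genes were the 10 members, up to 3 per further list with the largest change in the lines, CCA1, LHY, PRR9, PRR7 and WRKY75. The 5 most alike and 5 most opposite genes by r, outside the clock and marker lists, were also named. Motifs were searched from RefSeq TAIR10.1 starts. Alternatives were other scalings, no filter, DESeq2 1.42.0, a replicate block, only the groups compared, other wild-type groups, and leaving out each replicate. Replicates were checked for copies, and none was found (lowest chi-square per degree of freedom 14.4).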

Additional observations from a re-analysis of the deposited data

Results flagged for a closer look

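In several clock genes 1 library of a line lay far from the other 3 of its line, by Dixon's gap test at the 95% level. Chance flags about 5% of such groups, but replicate 4 had been set apart when the genes were chosen, so the values of the clock genes here are a description and support nothing. In ELF3, replicate 4 was the low library in both lines, at 40.7 CPM in N2102363 and 33.4 CPM in N2102362. In GI, replicate 4 of N2102362 was low at 59.0 CPM, while N2102363 did not reach the critical value. In LHY, replicate 4 was the high library in both lines, at 19.7 CPM in N2102363 and 22.7 CPM in N2102362. CCA1 was high at 69.1 CPM in replicate 4 of N2102363, and LNK2 at 799 CPM in replicate 4 of N2102362. WRKY75 was high at 82.1 CPM in replicate 4 of N2102362. TOC1, PRR5, PRR3, FKF1, ELF4 and LUX, also low in replicate 4, did not reach the critical value. Groups of 3 libraries were not examined this way.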

How the results depend on the processing

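In the 5 comparisons between groups, 0 evening genes were called under every alternative run, DESeq2 included, and no called value of a named gene reversed. The replicate 4 count of 7 ranged from 0 to 8 when each library was left out in turn, and was 8 with DESeq2 and with only the lines in the fit. Scaling by library totals alone put the median of all genes in replicate 4 at -0.11 in place of -0.01, and that of the evening genes at -1.07 in place of -0.97. With both Col-0 groups as the wild type the median of the evening genes in the lines was -0.29, and with Col-0 with water alone -0.09. With a replicate block it was -0.21, with 0 called. The shared numbers were not taken as pairing the samples in the main fit, because the labels do not say that they do. Deviations from group means correlated over 0.1 in 14 of 18 same-numbered pairs (lowest 0.063, median 0.21). This was so in 3 of 36 pairs with different numbers (median -0.10). Deviations within a group sum to 0, so these pairs mirror the same-numbered ones and add no separate support. By this measure same-numbered libraries were the more alike. The replicate 4 value has no blocked form because the block holds it. Over all genes, the 7 called in the mean of the lines became 27 with DESeq2 and 127 with both Col-0 groups as the wild type, and the 1468 called in replicate 4 became 2635 with DESeq2; the cause was not tested. BOA, ELF4 and the replicate 4 values of FKF1 rest on few counts, which limits their precision.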
